A study of Homo sapiens with 16 samples.

Results

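The response of wild-type MDA-MB-231 cells to tunicamycin was read from 4 of the 16 RNA-seq samples of the series, 2 biological replicates of wild type (WT) under control treatment and 2 of WT under tunicamycin. MDA-MB-231 is a human cell line from an invasive, triple-negative breast tumour, used here at passages 10 to 15, and tunicamycin is an inhibitor of N-linked glycosylation that stresses the endoplasmic reticulum (ER). The other samples are WT cells given cisplatin or doxorubicin and cells with the clock gene BMAL1 (symbol ARNTL) knocked out (KO) under the same 4 treatments. Per the design text, tunicamycin served as a comparison treatment in which BMAL1 was thought to matter little. The sources used here do not give the dose, the time of exposure, the vehicle or the way the knockout was made, and the protocol for RNA extraction speaks of fibroblast lines where the other labels name MDA-MB-231.

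The ratio was formed from 60658 Ensembl genes, for which each group has a single FPKM value (fragments counted per kilobase and scaled to the sequenced total) that the authors made from both replicates. No value per library was given, so there is no spread between replicates and no test of the WT response, and every difference below is a value of these pooled groups. The 9166 genes with at least 5 FPKM in 1 of the 2 WT groups (15.1% of all) were kept, the log2 ratio of tunicamycin over control was taken after adding 1 FPKM, and the median over those genes was subtracted, because the tables of the 2 treatments were normalized separately. The median before centring was -0.11. A gene is called higher or lower where this centred log2 ratio is at least 1 in size, a 2-fold change, and ratios are on this log2(FPKM + 1) scale, which understates the change of low genes. An upper bound of the error within tables, from the spread that Cuffdiff estimated between WT and KO in both tables, had a median of 0.25 log2 over the genes. This error bound leaves out the separate scaling of the 2 tables, and it does not mark a group value that stands apart from the other groups.

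Proteins enter the ER unfolded, and the oligosaccharide that tunicamycin withholds is added to them there. Unfolded protein is sensed by 3 membrane proteins: IRE1 (ERN1), which splices XBP1 mRNA and cuts other mRNAs at the ER; PERK (EIF2AK3), which phosphorylates eIF2alpha, so that translation slows while ATF4 is made; and ATF6, which is cut by the Golgi proteases MBTPS1 and MBTPS2 to release a transcription factor. XBP1 and ATF6 are known for chaperone and degradation genes, and ATF4 with its partner CHOP (DDIT3) for amino acid and stress genes.

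Depth and identity of the groups were looked at first. WT control had fewer genes above 0 than WT tunicamycin, 19007 against 22132, and the 5th percentile of its values above 0 was 1.84 times that of WT tunicamycin, while counts per library are not given. Of the 10 markers of a mesenchymal breast cancer line, 9 reached 5 FPKM, with VIM at 4434 FPKM in WT control and 4340 in WT tunicamycin, and EGFR was the one that passed 2-fold (1.18). The 12 luminal markers summed to 1091 and 1077 FPKM, nearly all from KRT8, KRT18 and KRT19, with PGR and CDH1 at 0. None of the 10 fibroblast and none of the 6 endothelial markers reached 5 FPKM, and the summed levels were 4.17 and 3.33 FPKM for fibroblast and 1.07 and 0.80 for endothelium, with COL3A1, DCN, LUM and PDGFRA at 0. Among the 9 blood cell markers only CD68 reached 5 FPKM, at 64.1 and 147 FPKM, while CD3E, HBB and HBA1 were at 0. The ratio of CD68 was 1.29 in WT and 0.08 in KO.

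In all, 424 of the 9166 genes were at least 2-fold higher in tunicamycin (4.63%) and 143 were at least 2-fold lower (1.56%). The 15 highest and 15 lowest genes by the naming rule include pseudogenes and small nuclear RNAs, of which several are listed at 0 in 1 of the groups, so the counts were also taken over protein-coding genes. Of 8721 such genes, 317 were higher (3.63%) and 100 lower (1.15%). The change, here taken without the added 1 FPKM, was more than 2 times the error bound in 281 of the 312 higher genes that have a bound. It was so in 81 of the 99 lower ones. The median bound over protein-coding genes was 0.24, so many genes called at 2-fold would pass by the calling rule alone. These counts are therefore no support for the calls. In bulk RNA, fewer cells of a kind and less RNA per cell cannot be told apart. The protein-coding genes just past the threshold were TNRC18 and PAWR at 1.0001 and 1.0008, with TBL2 and SLC38A1 just outside at 0.9997 and 0.998. On the lower side CCDC58 and C4orf27 were just inside at -1.002 and -1.004, with GINS1 and PSMA2 outside at -0.996 and -0.995.

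The highest protein-coding gene with a named symbol was GDF15, a secreted stress cytokine (chr19:18374731-18389176, GRCh38, plus strand), at 2.30 FPKM in control and 116 in tunicamycin. HSPA5, which encodes BiP, the main chaperone of the ER lumen (chr9:125234853-125241330, minus strand), stood at 311 and 5887 FPKM. HERPUD1, a membrane protein of ER-associated degradation (chr16:56932048-56944863, plus strand), had 25.6 and 385 FPKM. The centred log2 ratios of these 3 genes were 5.25, 4.35 and 3.97, with error bounds of 0.60, 0.02 and 0.21. Next came DDIT3, TRIB3 and CHAC1 with ratios of 3.94, 3.71 and 3.70, then BHLHA15, a transcription factor of secretory cells known as MIST1, which had 0.11 FPKM in control and 12.2 in tunicamycin. SDF2L1, a luminal partner of BiP, closed the first 15 by the naming rule with 43.3 and 455 FPKM. The 15 also hold noncoding RNAs and pseudogenes, with FTX_2 and PDIA3P2 above GDF15, and after SDF2L1 came genes outside the lists such as CEP97, PIGY and SLFN5.

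**Figure D1:**
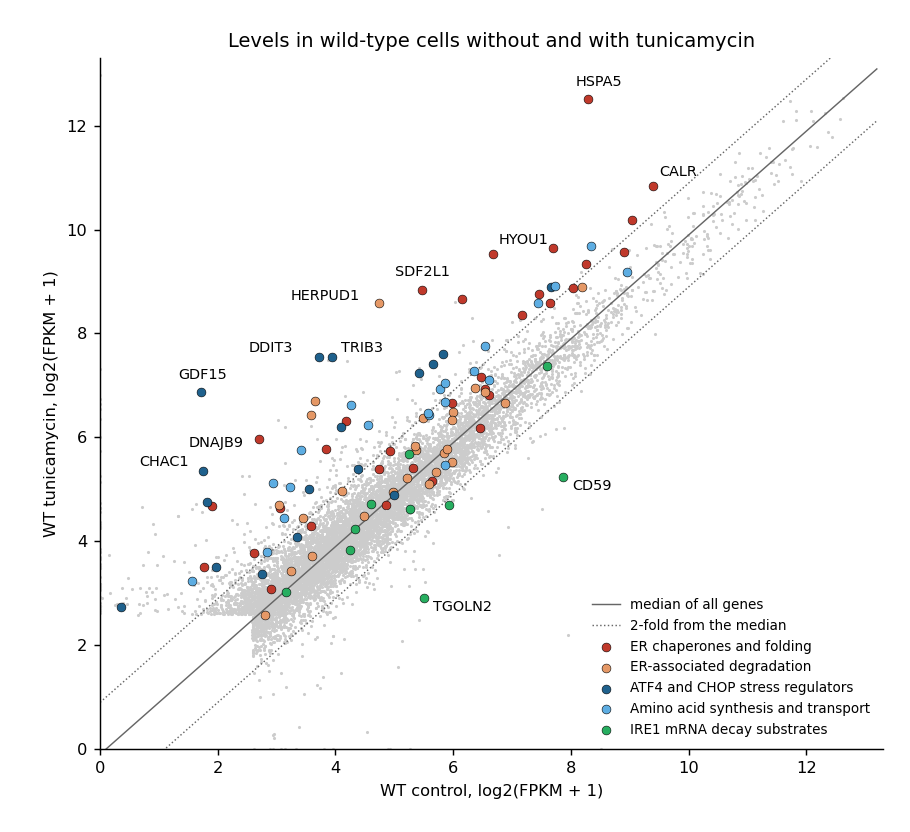
Each point is 1 of the 9166 genes, with the WT control level on the x axis and the WT tunicamycin level on the y axis, both as log2(FPKM + 1); the solid line is the median shift and the dotted lines mark 2-fold from it. Members of 5 gene lists are coloured: HSPA5 lies farthest above the line among abundant genes, and CD59 and TGOLN2 lie below it.

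**Figure D2:**
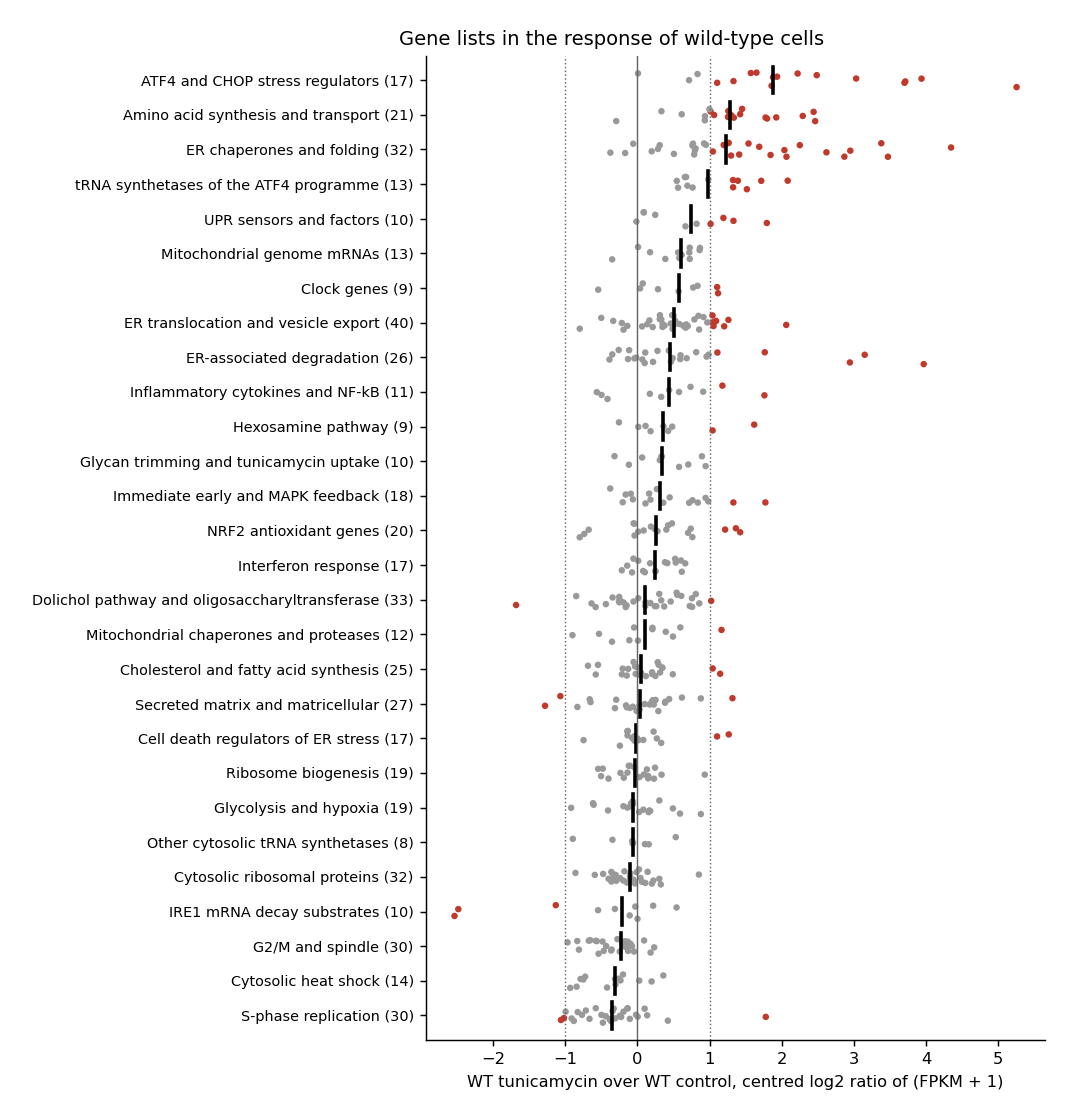
Centred log2 ratio of WT tunicamycin over WT control (x axis) for the members of each gene list, with the number of members above the floor in brackets; bars are medians, red points passed 2-fold and grey points did not. The ATF4 and CHOP regulators have the highest median, 1.88, and S-phase replication genes the lowest, -0.36.

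Members of all the lists below were chosen with earlier results of these data known, so their counts are descriptions. Over all protein-coding genes 3.63% were higher and 1.15% lower, and at 1.15% none lower is no result for lists this short. Among the listed sensors and factors, 4 of 10 genes above the floor were at least 2-fold higher and none was lower, with a median of 0.74. Of the 4, EIF2AK3 was the only sensor. EIF2AK3 had 2.998 FPKM in control and 11.9 in tunicamycin, a ratio of 1.79 with a bound of 0.53. ATF4 had 202 and 473 FPKM (1.33), NFE2L1, which activates proteasome genes, had 95.01 and 203 (1.19), and XBP1 had 60.6 and 115 (1.01). The kinase PERK thus had the highest ratio of the group, from a low level in control. Below the threshold were ATF6 at 0.82, the ATF6 relative CREB3L2 at 0.67, MBTPS1 at 0.25, ATF6B and CREB3 both at 0.09, and MBTPS2 at -0.01. ERN1 stayed under the floor, with 2.504 and 3.39 FPKM. The values are per gene, so they do not show which splice form of XBP1 mRNA was present.

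Of the 32 ER chaperones and folding enzymes, all were above the floor, 18 were at least 2-fold higher and none was lower, with a median of 1.22 against 0 over all genes. The shares over all protein-coding genes were 3.63% higher and 1.15% lower. Their summed level was 4161 FPKM in control and 15323 in tunicamycin. After HSPA5 and SDF2L1 came DNAJB9, a J-domain partner of BiP, with 5.49 and 61.7 FPKM (3.38), and HYOU1, a nucleotide exchange factor of BiP, with 102 and 735 (2.95). FICD, the enzyme that attaches AMP to BiP, had 2.75 and 24.4 FPKM (2.87). Other J-domain proteins of the ER were spread out, with DNAJC3 at 2.04, DNAJB11 at 1.30, DNAJC10 at 0.92 and DNAJC1 at 0.20, and SIL1, another exchange factor of BiP, was at -0.17. The disulfide isomerases were spread out: PDIA4 was at 2.62, PDIA3 at 1.41 and PDIA6 at 1.04, while P4HB was at 0.77, TXNDC5 at 0.31 and PDIA5 at 0.28. The lectin chaperones CALR and CANX, which hold glycoproteins by their glycans, were at 1.54 and 1.25, and HSP90B1 (GRP94) at 0.95. Paralogs also parted: ERO1B was at 1.84 and ERO1A, both oxidases of isomerases, at -0.06, and SDF2L1 was at 3.47 and SDF2 at -0.38.

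Promoters of several of these genes hold the ER stress response element (ERSE), which is CCAAT, then 9 free bases, then CCACG, and which NF-Y and ATF6 are known to bind. It was searched on both strands in the 250 bases before each start in the RefSeq promoter table (GRCh38.p14), where 7248 of the 8721 protein-coding genes matched by symbol. It was found in 13 of the 7248 promoters (0.179%), against 22 of all 27305 promoters of the table (0.0806%), and in 10 of the 264 genes called higher that had a promoter (3.79%), 0 of the 79 called lower and 7 of the 29 chaperones (24.1%). The HSPA5 promoter, printed because it belongs to the chaperone with the highest ratio, runs from chr9:125241344-125241593 on the minus strand, with the ERSE in capitals from 66 to 48 bases before the start:
HSPA5 promoter: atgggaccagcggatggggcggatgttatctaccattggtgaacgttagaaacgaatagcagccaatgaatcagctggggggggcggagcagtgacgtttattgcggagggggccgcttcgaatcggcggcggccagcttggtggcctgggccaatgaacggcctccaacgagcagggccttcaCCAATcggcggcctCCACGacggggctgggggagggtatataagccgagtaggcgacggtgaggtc
The sites themselves are printed to show what 6 of the 13 genes share and where they differ, in the direction CCAAT to CCACG with the fixed bases in capitals:
HSPA5: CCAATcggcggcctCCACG
FICD: CCAATgggagtggcCCACG
CALR: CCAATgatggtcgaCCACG
CANX: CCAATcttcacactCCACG
XBP1: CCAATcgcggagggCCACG
HSP90B1: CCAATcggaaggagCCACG
In the 13 genes the ratio ran from 4.35 in HSPA5 to 0.26 in EIF2A, so the element did not come with 1 size of change. A pair of the sites lies between neighbours that face away from each other. CRELD2, a folding factor of the ER, and ALG12, a mannosyltransferase, share the site at chr22:49918554-49918572, with ratios of 2.25 and 1.02. SERP1, which protects the translocon, and EIF2A, a translation factor, share the site at chr3:150546710-150546728, with ratios of 1.63 and 0.26:
CRELD2 and ALG12: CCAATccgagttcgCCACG
SERP1 and EIF2A: CCAATtcgctgtctCCACG
The level of SERP1 was 79.6 FPKM in control and 231 in tunicamycin. In both pairs the annotated spans overlap on opposite strands, and the sources used here do not say whether counting used strand. TRIM5, an antiviral factor at 1.45, ERO1B at 1.84 and TMEM120A at 0.44 complete the 13.

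A shorter form, ERSE-II, is ATTGG, 1 free base and CCACG, and it was added after the data were seen. On either strand it was found in 10 of the 7248 promoters (0.138%) and in 3 of the 264 genes called higher (1.14%), HERPUD1, SDF2L1 and HYOU1, which all stood among the 17 highest protein-coding genes with a named symbol. HYOU1 holds it at 2 places, and the farther one overlaps a UPRE core. In the genes called lower it was found in 1 of 79, PLS3, which had 178 FPKM in WT control and 64.4 in WT tunicamycin. In KO cells PLS3 had 70.6 FPKM in control and 71.8 in tunicamycin, a ratio of 0.10. The 2 promoters below run from chr16:56931892-56932141 on the plus strand and from chr22:21642052-21642301 on the plus strand, with the element in capitals, in SDF2L1 on the opposite strand:
HERPUD1 promoter: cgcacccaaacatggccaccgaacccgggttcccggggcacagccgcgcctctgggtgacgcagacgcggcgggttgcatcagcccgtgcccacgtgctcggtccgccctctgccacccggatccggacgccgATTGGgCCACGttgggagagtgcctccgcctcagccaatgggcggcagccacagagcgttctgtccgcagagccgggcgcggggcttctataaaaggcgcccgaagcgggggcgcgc
SDF2L1 promoter: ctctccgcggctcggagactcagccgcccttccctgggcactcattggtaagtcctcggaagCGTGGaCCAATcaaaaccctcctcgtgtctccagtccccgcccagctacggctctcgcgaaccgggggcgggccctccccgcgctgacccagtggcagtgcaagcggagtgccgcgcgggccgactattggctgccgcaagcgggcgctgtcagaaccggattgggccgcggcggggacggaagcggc
The UPRE core TGACGTGG, known for XBP1 and ATF6, was in 2 of the 264 (0.758%) and in 56 of the 7248 (0.773%), shares that lie together. By list it was in 2 of 29 chaperones (6.90%), 2 of 20 degradation genes (10%) and 1 of 16 amino acid genes (6.25%). It was in 0 of 16 ATF4 and CHOP regulators, 0 of 11 synthetases of the ATF4 programme and 0 of 6 other synthetases. The amino acid response core, TGATG, 1 free base and AA, known for ATF4 with CEBP partners, was in 9 of the 264 (3.41%), 3 of the 79 (3.80%) and 91 of the 7248 (1.26%), and in 3.19% of all promoters. The 9 higher genes with this core were HERPUD1, CHAC1, ASNS, HLA-G, AARS, SYNE1, TRIM2, BCAT1 and GOT1, and the 3 lower ones were RNF182, CDC26 and RAB28. By list the amino acid response core was in 2 of 16 ATF4 and CHOP regulators (12.5%), 2 of 16 amino acid genes (12.5%) and 2 of 11 synthetases of the ATF4 programme (18.2%). It was in 1 of 20 degradation genes (5%), 0 of 29 chaperones and 0 of 6 other synthetases. For both cores the counts per list are too small to compare lists. These matches are letters in a window, not measured binding.

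ER-associated degradation, which returns misfolded protein to the cytosol for the proteasome, gave 5 of 26 members higher and none lower, with a median of 0.45. The shares over all protein-coding genes were 3.63% and 1.15%. The members that passed were HERPUD1 and 4 genes of the core ligase and its lectins. SEL1L, the adaptor of the ligase, had 11.6 and 103 FPKM (3.15), and SYVN1, the ubiquitin ligase HRD1, had 10.99 and 84.7 (2.94). The mannosidase-like proteins EDEM1 and EDEM2 were at 1.76 and 1.11, while EDEM3 was at 0.28. VIMP was just short at 0.99, UBE2J1 was at 0.96 and the ATPase VCP at 0.81. Lower in the list, UFD1L and NPLOC4, partners of VCP, were at -0.12 and -0.35. DERL3 stayed under the floor, with 0.31 and 3.97 FPKM.

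Translocation into the ER and export from it gave 8 of 40 higher and none lower, beside 3.63% and 1.15% over all protein-coding genes, with a median of 0.50. SEC24D, a cargo-binding coat protein of COPII vesicles, had 15.2 and 61.7 FPKM (2.06), and was the one member above 1.26. TMED10, a cargo receptor, was at 1.26, the Golgi tether GOLGB1 at 1.20, and SEC61A1, the channel itself, at 1.09. SEC61G, a small subunit of the same channel, had 334 FPKM in control and 178 in tunicamycin (-0.80). Most of the 8 lay close to the threshold, and without centring 3 passed.

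The ATF4 and CHOP regulators were the list with the highest median, 1.88, with 14 of the 17 members above the floor at least 2-fold higher and none lower. The shares over all protein-coding genes were 3.63% and 1.15%. Listed members were 22, and NUPR1, CREBRF, STC2, KLHL24 and FGF21 stayed under the floor. GDF15, CHAC1 and SESN2 were under 5 FPKM in control and are counted only through their level in tunicamycin. DDIT3 had 12.1 FPKM in control and 186 in tunicamycin, TRIB3, a pseudokinase that restrains ATF4, had 14.4 and 187, and CHAC1, which degrades glutathione, had 2.38 and 39.8. SESN2, an inhibitor of mTORC1, had 2.54 and 25.9 FPKM (3.03). PPP1R15A (GADD34), which restores translation by dephosphorylating eIF2alpha, was at 1.88 from 56.1 and 194 FPKM. VEGFA, DDIT4 and CEBPB were at 2.22, 1.94 and 1.86. The 3 members above the floor that did not pass were NFIL3 at 0.83, ATF3 at 0.71 and ATF5 at 0.01, the last with 30.8 and 28.7 FPKM.

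Genes of amino acid synthesis and transport were higher in 15 of the 21 members above the floor and lower in none, with a median of 1.28. The shares over all protein-coding genes were 3.63% and 1.15%. ASNS, asparagine synthetase, had 18.2 and 97.4 FPKM (2.46), PCK2, the mitochondrial PEP carboxykinase, had 9.70 and 53.0 (2.44), and the glycine transporter SLC6A9 had 6.62 and 33.6 (2.29). The serine pathway was represented by PSPH at 1.80, PSAT1 at 1.34, SHMT2 at 1.26 and MTHFD2 at 1.25. PHGDH, its first enzyme, was at 0 FPKM in control and 0.017 in tunicamycin. Subunits of 1 transporter parted, since SLC3A2, the heavy chain, had 325 and 826 FPKM (1.45) and its light chain SLC7A5 had 497 and 582 (0.33). SLC7A11, another light chain and the cystine carrier, was at 1.42.

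The tRNA synthetases were put in 2 lists with earlier results of these data known, so the contrast between the lists is a description. Among the 12 synthetases and XPOT, the tRNA exporter, that are known for the ATF4 programme, 6 of 13 were at least 2-fold higher, beside 3.63% of all protein-coding genes, and the lowest of the 13 was at 0.54. Among 8 other cytosolic synthetase genes none passed in either direction, which at that share is no result for so short a list, the highest was QARS at 0.53 and the lowest RARS at -0.90. The 13 and the 8 did not overlap, with medians of 0.98 and -0.06, although the gap between TARS at 0.54 and QARS at 0.53 is far inside their error bounds of 0.12 and 0.15. WARS led, with 78.5 FPKM in control and 312 in tunicamycin (2.08), then MARS at 1.72 and AARS at 1.52, while HARS, KARS and FARSA lay between -0.06 and -0.07. RARS had 121 and 59.8 FPKM, the lowest ratio of the 21. In KO cells the medians were 1.17 and 0.01, with LARS the lowest of the 13 at 0.62 and DARS the highest of the 8 at 0.30.

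**Figure D3:**
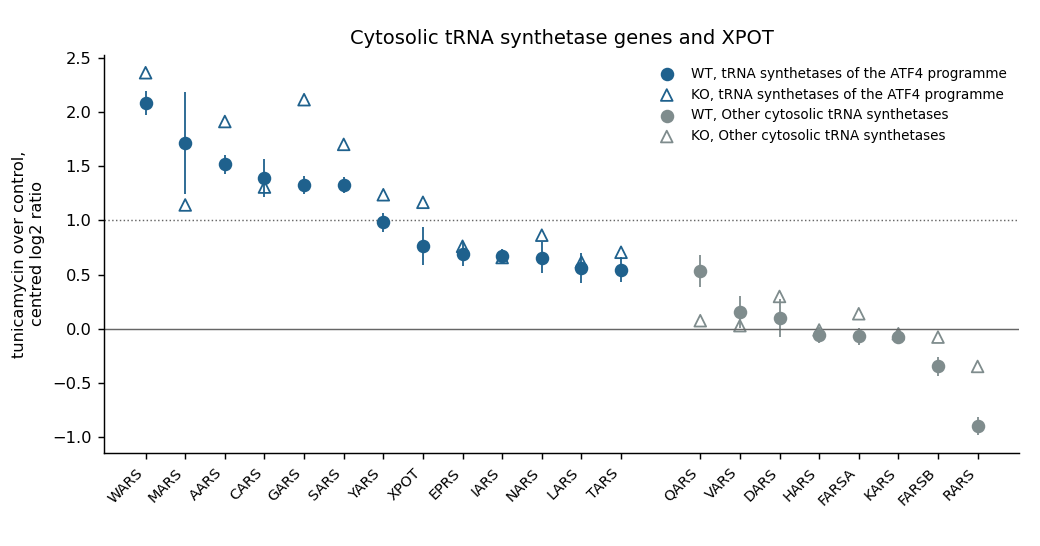
Centred log2 ratio of tunicamycin over control for 13 genes of the ATF4 programme (blue) and 8 other cytosolic synthetase genes (grey), in WT (filled circles, bars are plus and minus the error bound) and KO (open triangles). All 13 blue circles lie at 0.54 or above and all 8 grey circles at 0.53 or below.

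The pathway that tunicamycin inhibits was near the share over all protein-coding genes (3.63% higher and 1.15% lower). Of the 33 genes of dolichol-linked glycan assembly and oligosaccharyltransferase above the floor, 1 was higher and 1 lower, with a median of 0.11. DPAGT1, the enzyme that tunicamycin binds, had 28.9 FPKM in control and 45.8 in tunicamycin (0.75, bound 0.18). ALG12 was at 1.02, and ALG14, a subunit of the next transferase, had 14.5 and 3.48 FPKM (-1.68, bound 0.71), while in KO cells it had 6.23 and 5.97. The hexosamine pathway makes the UDP-GlcNAc that DPAGT1 uses, and 2 of its 9 members were higher. These were GFPT1, its rate-limiting enzyme, with 15.8 and 46.9 FPKM (1.62), and PGM3 with 17.6 and 34.6 (1.04), whereas UAP1 was at 0.48 and OGT at 0.11. None of the 10 glycan trimming and uptake genes passed, and MFSD2A, the transporter known to carry tunicamycin into cells, was highest at 0.94 from 6.65 and 12.7 FPKM.

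Among 17 cell death regulators of ER stress, 2 were higher and none lower, with a median of -0.02. Over all protein-coding genes 3.63% were higher and 1.15% lower. TNFRSF10B (DR5), a death receptor known as a CHOP target, had 24.3 and 55.4 FPKM (1.26), and BBC3 (PUMA), a BH3-only protein, had 2.73 and 6.44 (1.10). MCL1 and BCL2L1, which protect cells, were at 0.33 and 0.22, and PMAIP1 (NOXA) was at -0.14.

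The lowest protein-coding genes were TMEM165, IMMP1L, CD59, BCAM and TGOLN2. TMEM165, a Golgi protein needed for glycosylation, had 41.7 FPKM in control and 4.57 in tunicamycin (-2.83, bound 0.40). CD59, a GPI-anchored inhibitor of complement, had 233 and 36.6 FPKM (-2.54, bound 0.15). BCAM, a laminin receptor, had 16.0 and 1.75 (-2.52, bound 0.97), and TGOLN2, a resident of the trans-Golgi network, had 44.3 and 6.52 (-2.48, bound 0.13). IMMP1L, a protease of the inner mitochondrial membrane, had 121 and 18.4 FPKM (-2.55), with a WT control that stood apart from the other groups. The other 4 were also lower in KO cells, at -2.74, -2.70, -2.49 and -2.55. TGOLN2 and CD59 belong to the list of 12 mRNAs known or reported as cut by IRE1. Of these 10 were above the floor, 3 were lower, beside 1.15% over all protein-coding genes, and none was higher. The third was PMP22, a myelin membrane protein, with 59.8 and 24.8 FPKM (-1.13). BLOC1S1, a substrate often used as a reporter of this decay, was at -0.55 from 37.6 and 23.5 FPKM, and ERGIC3, PDK2 and SCARA3 lay between -0.11 and 0.22. The median of the 10 was -0.21, so the list held a few large changes and many small ones. Without the genes whose WT and KO controls differed by 2-fold, which leaves CD59 and PMP22 out, 1 passed.

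A few signalling genes among the lower ones were picked after their values were seen, and no list of their pathways was counted. ID3 and ID1, inhibitors of bHLH factors and BMP targets, had 44.7 and 8.26 FPKM (-2.20) and 154 and 47.6 (-1.56). ENG, a BMP co-receptor, had 44.1 and 10.1 FPKM (-1.92), BMP4 itself had 39.2 and 12.96 (-1.42), and the Wnt antagonist DKK1 had 236 and 71.7 (-1.60). In KO cells all 5 were lower by 2-fold as well, with ratios from -1.09 in DKK1 to -2.82 in ID3. Of all protein-coding genes called lower in WT, 27% passed in KO too. Low values were not particular to tunicamycin. In WT doxorubicin, over the same WT control, ID3 was at -3.94, ID1 at -3.16, BMP4 at -2.23 and DKK1 at -4.33, while ENG was at 0.68.

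Proliferation genes showed small changes in level, and their counts are read beside 3.63% higher and 1.15% lower over all protein-coding genes. At those shares, a list of 30 with none called is no result. Of 30 G2/M and spindle genes none passed 2-fold, with a median of -0.23 and 3 members above 0, and the lowest was CDK1 at -0.97 from 122 and 57.6 FPKM. Of 30 S-phase genes, 2 were lower and 1 was higher, with a median of -0.36. PCNA, the sliding clamp, had 221 and 101 FPKM (-1.02), POLE2 had 22.4 and 9.44 (-1.06), and CDC6, a loader of the replicative helicase, went the other way with 43.0 and 139 (1.78). CDKN1A was at 0.42.

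Lists of stress programmes outside the ER are read beside 3.63% higher and 1.15% lower over all protein-coding genes. None of 14 cytosolic heat shock genes passed, and 11 of the 14 were below 0, among them HSPA8 at -0.84 from 2244 and 1162 FPKM and DNAJA1 at -0.93. The mitochondrial chaperone list had 1 of 12 higher, the protease LONP1 at 1.16, with HSPE1 at -0.90. NRF2 genes had 3 of 20 higher, SLC7A11, HMOX1 at 1.36 and OSGIN1 at 1.21, while TXN and PRDX1 were at -0.68 and -0.74. Cytokine and NF-kB genes had 2 of 11 higher, IL6 at 1.76 from 4.85 and 17.4 FPKM and CXCL8 at 1.18 from 20.4 and 43.9, with NFKBIA at -0.56. Immediate early genes had 2 of 18 higher, KLF4 at 1.77 and EGR1 at 1.33. Cholesterol and fatty acid genes had 2 of 25 higher, STARD4 and MVD. Secreted matrix genes had 1 of 27 higher, LOX at 1.32, and 2 lower, THBS1 at -1.28 and LAMA5 at -1.07.

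None of 32 ribosomal protein genes, 19 ribosome biogenesis genes, 19 glycolysis and hypoxia genes or 17 interferon genes passed in either direction, with medians of -0.10, -0.03, -0.06 and 0.25. Beside 3.63% higher and 1.15% lower over all protein-coding genes, none passing is no result for lists this short. The 13 mRNAs of the mitochondrial genome had a median of 0.60 with none past 2-fold, and made up 4.95% of all FPKM in WT control and 6.37% in WT tunicamycin. In KO cells their median was 0.11. Clock genes had 2 of 9 higher, NPAS2 at 1.12 and BHLHE40 (DEC1) at 1.10, and ARNTL had 5.67 and 3.25 FPKM (-0.54, bound 1.51).

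The KO cells give the same ratio from samples of their own, although each of the 2 tables was normalized over both genotypes together. ARNTL had 0.89 FPKM in KO control and 2.24 in KO tunicamycin. KO over WT was -2.67 with q = 0.000213 in the authors' deposited table for control and -0.53 with q = 0.081 in the authors' deposited table for tunicamycin, and a level per gene does not show a small deletion. Of 8706 protein-coding genes above the floor in KO, 316 were higher (3.63%) and 121 lower (1.39%). Shared with WT were 195 of the higher genes, which is 61.5% of the 317 and 61.7% of the 316, and 27 of the lower genes, 27% of the 100 and 22.3% of the 121. Of the 317, 303 had a KO ratio above 0, and of the 100, 89 had one below 0. Across 8334 protein-coding genes above the floor in both genotypes Pearson's r of the ratios was 0.71 and Spearman's rho 0.59, a description in which the points share tables and genes are not independent replicates. HSPA5 had 358 FPKM in KO control and 7050 in KO tunicamycin, a ratio of 4.37 beside 4.35, and GDF15 was at 5.35 beside 5.25. Of the list members called higher in WT, KO passed too in 4 of 4 of the sensors and factors list, where EIF2AK3 was the only sensor. It passed in 16 of 18 chaperones, 5 of 5 degradation genes, 14 of 14 ATF4 and CHOP regulators, 15 of 15 amino acid genes and 6 of 6 synthetases. For translocation and export it was 3 of 8, and for the lower IRE1 substrates 3 of 3.

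For some calls it was the WT control value that stood apart. In 20 of the 317 higher and 8 of the 100 lower protein-coding genes, WT control lay at least 2-fold outside all 7 other groups, and the KO ratio passed in the same direction in 1 of the 20 and 3 of the 8. WT tunicamycin is 1 of those groups, so such genes are called almost by definition. They were 0.229% and 0.0917% of all 8721. The same counts, below and above, were 23 and 56 for WT doxorubicin, 73 and 2 for KO cisplatin and 33 and 100 for KO doxorubicin. In the other groups neither count passed 9. TUBA1A, an alpha-tubulin, had 64.1 FPKM in WT control, 388 in WT tunicamycin, 513 in KO control and 427 in KO tunicamycin, and in WT its ratio was also 3.16 for cisplatin and 4.34 for doxorubicin. Its near-identical neighbour TUBA1B, which can share reads with it, had 1416 and 1637 FPKM in the WT groups. TUBB2B, NOMO2, POTEE, POTEJ and KRT6A had the same pattern, as had RAB28 and IMMP1L on the lower side, and CD68 among the markers. Over all genes 73 of the 424 higher and 29 of the 143 lower stood apart in this way, 0.796% and 0.316% of the genes above the floor. The part of the smaller number of genes above 0 in WT control was not tested. CEP97, a protein of the centriole, is a separate case: its level was 7.12 and 79.7 FPKM in WT (3.42) but 4.23 and 3.91 in KO, and the authors' deposited table for tunicamycin gives KO over WT as -4.35 with q = 0.000173.

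**Figure D4:**
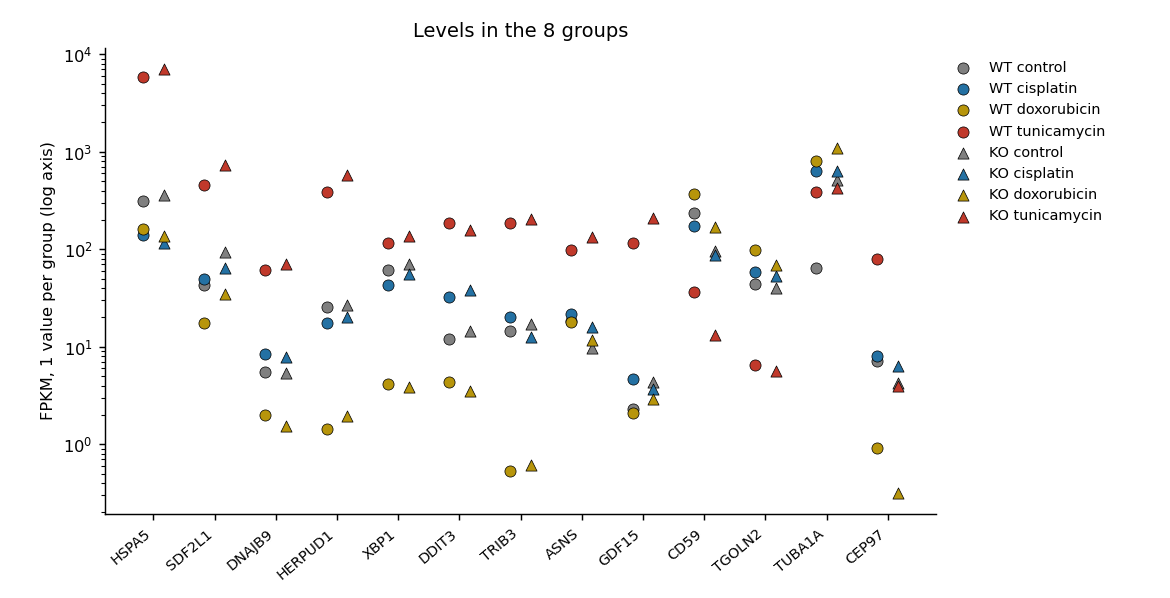
FPKM on a log axis in each of the 8 groups (1 pooled value per group, circles WT, triangles KO, colours the treatments) for 13 genes. Tunicamycin is the highest pair of values from HSPA5 to GDF15 and the lowest for CD59 and TGOLN2, while TUBA1A differs by the low WT control and CEP97 by the high WT tunicamycin value.

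**Figure D5:**
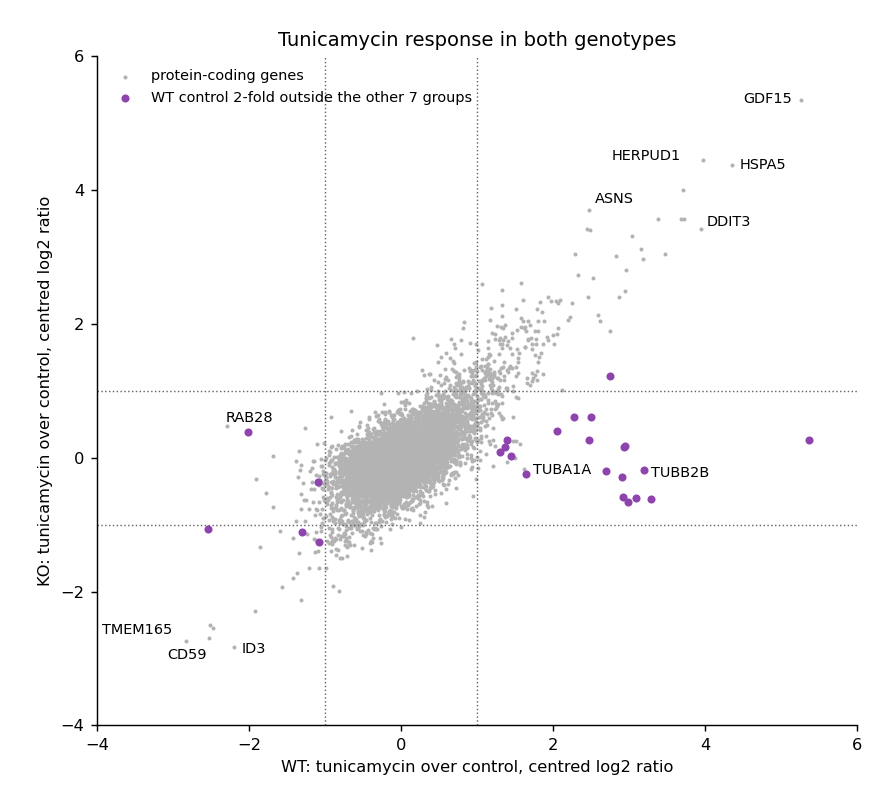
Centred log2 ratio of tunicamycin over control in WT (x axis) and KO (y axis) for protein-coding genes above the floor in both genotypes, with dotted lines at 2-fold; purple marks the genes whose WT control lies 2-fold outside the other 7 groups. Chaperone and ATF4 branch genes lie near the diagonal, and most purple points lie near a KO ratio of 0.

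Transcript length moved with the WT ratio. In 5 classes of the longest annotated transcript the median ratio was -0.15 under 1000 bases, -0.14 from 1000 to 2000, -0.05 from 2000 to 4000, 0.08 from 4000 to 8000 and 0.22 at 8000 or more. In KO cells the medians of these classes were 0.06, -0.01, -0.02, 0.01 and 0.09. The 100 lower genes had a median length of 2684 bases and the 317 higher genes 4017, beside 3538 over all protein-coding genes. The part of length in the calls was not tested.

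The other drugs are set beside tunicamycin as values only, since all 3 ratios share WT control. For the ER chaperones the median was 1.22 in tunicamycin, -0.42 in cisplatin and 0.84 in doxorubicin, whose median over all genes before centring was -0.72. HSPA5 was at 4.35, -1.27 and -0.23, and DDIT3 at 3.94, 1.23 and -0.57. The ATF4 and CHOP regulators had medians of 1.88, 0.35 and -1.004. TGOLN2 was at -2.48, 0.27 and 1.86, and CD59 at -2.54, -0.55 and 1.37. The G2/M genes had medians of -0.23, -0.58 and -2.01.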

How the data were processed

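Total RNA was made into mRNA libraries and sequenced as paired ends, per the labels' protocols. FastQC 0.11.5, Trimmomatic 0.35, STAR 2.5.3, Cufflinks, Cuffdiff and build hg38 are named in the submitters' processing notes, while the annotation, the use of strand and the role of each tool were not given in the sources used here. The authors deposited 1 Cuffdiff table per treatment with 1 FPKM value for WT and 1 for KO, both replicates pooled. The log2 values, the test statistic (a score) and the p-values and q-values deposited by the authors compare KO with WT and were used for the error bound and where named. That bound is the root of the summed squares of the deposited log2 ratio over its statistic in the control and tunicamycin tables. In both tables the normal quantile of p was about 1.5 times the statistic, so the bound errs wide for the spread within tables. It does not cover the scaling between the tables.

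Ratios were computed with pandas 2.3.3 and numpy 2.4.6 in Python 3.11.15, and the arithmetic was checked on simulated data. The simulated noise was far below the real SD of 0.67 log2 across genes, and large changes were put only into genes above the floor in control. Recovery was thus nearly fixed in advance, and the check does not cover low genes or a group value that stands apart. Gene types, positions and lengths are from GENCODE release 29 (GRCh38), which matched 9150 of the 9166 genes. Named genes are the 15 highest and 15 lowest with a single symbol, leaving out symbols with set prefixes of small RNAs and clone names (U1 and other noncoding RNAs passed these). Also named are all listed sensors and factors, and up to 4 members of each list with the largest ratios in size. The 30 highest and lowest protein-coding genes and others that the text compares were added after their values were seen. The members and the 33 lists were chosen with earlier results of these data known. Overlapping genes and near-identical copies are uncertain. A search of proteins for retention signals and glycosylation sites was not run. A few single-gene values are not reported here.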

Additional observations from a re-analysis of the deposited data

How the results depend on the processing

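No called gene among those named or listed changed sign under any alternative. This was nearly fixed in advance, since called ratios are at least 1 in size and the shifts removed ran only from -0.13 to 0.01. The shift left without centring was -0.11, and scaling to the same FPKM sum or 75th percentile left medians of -0.02 and 0.01. Against 424 higher and 143 lower genes, a pseudocount of 5 gave 267 and 78, a floor of 1 FPKM gave 669 and 231, no floor gave 313 lower, a fold of 1.5 gave 1069 and 764, and a fold of 3 gave 191 and 48. Without genes whose WT and KO controls differed by 2-fold, an alternative added after the data were seen, 79 were lower. List medians moved by 0.1 or more in 28 of 28 lists without centring, 26 with no floor, 8 at a floor of 1 FPKM, 5 at a pseudocount of 5, 5 without the genes whose controls differ and 2 at a floor of 10 FPKM. Small medians changed sign: without centring, cholesterol genes went from 0.05 to -0.06 and secreted matrix from 0.03 to -0.08; with no floor these were -0.08 and -0.09, dolichol genes went from 0.11 to -0.01 and mitochondrial chaperones from 0.11 to -0.01; secreted matrix was -0.004 at a floor of 1 FPKM, and cell death regulators went from -0.02 to 0.002 at a floor of 10 FPKM. Over the 28 lists, counts of higher members moved by more than 1.5 times, or to or from 0, in 16 at a fold of 1.5, 15 at a fold of 3, 8 at a pseudocount of 5, 6 without centring and 6 with no floor, and counts of lower members in 13, 2, 2, 6 and 7. Among the ER stress, ATF4 and IRE1 lists the values were these. Translocation and export, with 8, had 4 at a pseudocount of 5, 3 with no floor, 3 without centring, 17 at a fold of 1.5 and 1 at a fold of 3. At a fold of 1.5, degradation genes had 11 and synthetases of the ATF4 programme 11. At a fold of 3, sensors and factors had 1, chaperones 11, amino acid genes 6 and those synthetases 2. Lower IRE1 substrates were 1 without the genes whose controls differ. Values of single genes stayed on their side of the threshold in 7267 cases, dropped under it in 133 and went past it in 135. Depth per library is unknown, so low genes are the least certain. No paired analysis was possible because the files hold 1 pooled value per group, and for the same reason replicates could not be left out in turn.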

Other observations

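Some genes outside the lists stood among the highest or lowest and were chosen after their values were seen. Those of vesicle and membrane traffic included MIA3 (TANGO1), a receptor for bulky cargo at ER exit sites, with 14.8 FPKM in WT control and 46.5 in WT tunicamycin (1.70), and HID1, a Golgi protein of dense core vesicles, with 4.77 and 36.9 (2.82). WIPI1, an autophagy protein that binds phosphoinositides, had 21.0 and 117 FPKM (2.52). Both subunits of GDP-mannose pyrophosphorylase, which makes the mannose donor for glycans, were higher, GMPPB with 16.2 and 55.1 FPKM (1.81) and GMPPA with 21.8 and 59.6 (1.51). SLC39A14, a zinc and iron importer, had 32.1 and 106 FPKM (1.79), and RCAN1, a calcineurin inhibitor, had 16.2 and 51.5 (1.72). In KO cells these 7 genes were also at least 2-fold higher, with ratios from 1.09 in MIA3 to 3.02 in HID1. Of all protein-coding genes called higher in WT, 61.5% passed in KO too. EPAS1 and TRIM25 were at 1.47 and 1.53 in WT but at 0.61 and 0.90 in KO.

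On the lower side, MGAT4B, a Golgi enzyme that branches N-glycans, had 78.1 and 27.4 FPKM (-1.37), YIF1A, a protein of ER to Golgi transport, had 45.8 and 17.3 (-1.25), PTK7, a Wnt co-receptor, had 19.3 and 7.15 (-1.21) and PIGQ, of GPI anchor synthesis, had 12.4 and 4.86 (-1.08). In KO cells their ratios were -1.73, -1.15, -1.64 and -1.65. HES1, a Notch target, had 14.9 and 4.81 FPKM (-1.34) and -1.43 in KO. Such sharing was not the rule, since 27% of all protein-coding genes called lower in WT passed in KO too. KISS1 was at -1.03 in WT and -0.58 in KO. PEG10, a gene of retrotransposon origin, differed between the genotypes in size, with 96.0 and 23.0 FPKM in WT (-1.91) and 59.9 and 45.4 in KO (-0.32); that difference was not tested.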
